A study of Mus musculus with 12 samples.

Results

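RNA of 10 antioxidant genes was followed through 4 genotypes of mouse embryonic fibroblasts (MEFs), the matrix-forming cells that grow out of cultured embryo tissue. The genes are Nfe2l2, which encodes the transcription factor NRF2, and 9 genes known as its targets (Nqo1, Hmox1, Gclc, Gclm, Txnrd1, Srxn1, G6pdx, Gsta4 and Gstm1). They were chosen by name, as genes of this pathway, but with earlier results of these data known. The same holds for the other gene lists below. Counts of called genes in these lists are therefore set beside the shares over all genes as description only. The members are 10 of the 37991 gene identifiers counted in each library. All 10 were among the 15098 genes with enough counts to be tested.

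The 12 libraries of polyadenylated RNA fall into 4 groups of 3. Per the labels, Gadd45a deficient and Ing1 deficient mice on a C57BL/6N background were crossed, and primary fibroblasts were taken from male embryos at E15.5. The labels have all groups harvested untreated at passage 4 and 80% confluency. The only difference between groups that they name is genotype: no mutation (WT), loss of Ing1 (Ing1 KO), loss of Gadd45a, or Gadd45a-/-;Ing1-/- double mutant (DKO). The labels name no Cre or transgene that would limit the mutations to 1 cell type. Whether replicates are different embryos is not stated in the labels, so the p-values measure only the spread between these libraries, which may be technical. Ing1 encodes a chromatin reader and Gadd45a a stress-induced protein linked to DNA repair and demethylation.

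NRF2 is a transcription factor that turns on protective genes when cells meet oxidants or reactive chemicals. In unstressed cells KEAP1, an adaptor of a CUL3 ubiquitin ligase, holds NRF2 and marks it for destruction, so the amount of NRF2 protein is set largely after transcription. Once freed, NRF2 pairs with a small MAF protein on the antioxidant response element (ARE) of its targets, while BACH1 occupies many of the same elements as a repressor. The targets make glutathione, regenerate thioredoxin, supply NADPH, degrade heme and attach glutathione to reactive molecules.

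The promoter stretches below are shown because they hold the ARE core in the members in which it was found, and so can be set beside the RNA values. The core searched was TGACNNNGC on both strands, in windows from 250 bases before to 50 bases after each start site that RefSeq gives on build GRCm38.p6, which is not the build the reads were counted on. Such a window was there for 7 members (10 windows in all). The core lay in 5 of the 10 windows, which belong to 5 of these 7 members, in 17 of 107 windows of other pathway genes and in 12.4% of all 32851 windows. Each stretch reads 5′ to 3′ on the gene's strand, with the core or its reverse complement in capitals.
Nfe2l2: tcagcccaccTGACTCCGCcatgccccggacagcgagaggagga
Gclm: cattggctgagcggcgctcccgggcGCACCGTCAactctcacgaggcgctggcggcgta
Txnrd1: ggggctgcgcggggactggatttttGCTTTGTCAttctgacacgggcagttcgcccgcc
Srxn1: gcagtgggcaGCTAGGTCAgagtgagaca
G6pdx: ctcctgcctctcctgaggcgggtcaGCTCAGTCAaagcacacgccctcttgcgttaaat
The Nfe2l2 stretch is chr2:75704870-75704913 on the minus strand, and its core begins 240 bases before the start site. Those of Gclm (chr3:122245398-122245456) and Txnrd1 (chr10:82859089-82859147) lie on the plus strand, with cores that begin 134 and 92 bases before it. The Txnrd1 core stood in 1 of that gene's 3 windows. The G6pdx stretch is chrX:74428904-74428962 on the minus strand, with its core 57 bases before the start site. In Srxn1 (chr2:152105542-152105570, plus strand) the core begins at base 29 of the transcript. None of the 5 cores overlaps the AP-1 motif TGACTCA or its reverse complement. The windows of Nqo1 and Gstm1 did not hold these letters, which says nothing of AREs outside the windows, and Hmox1, Gclc and Gsta4 had no entry. A match of letters is a description and not evidence of binding.

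Gene counts per library ran from 31493168 to 42852059. Levels are given as CPM, the library's counts scaled to a common total with TMM, and a gene is called where edgeR's quasi-likelihood test gives a Benjamini-Hochberg adjusted p under 0.05 over all 15098 genes. Ing1 checked its labels, at 50.4 to 54.5 CPM in the WT and labelled Gadd45a knockout libraries and 0.916 to 1.42 CPM in Ing1 KO and labelled DKO. Gadd45a went against its labels: it ran from 16.7 to 21.3 CPM over WT and Ing1 KO but was at 75.9 to 132 CPM in the 6 labelled as lacking it. The sources used here do not give the deleted part of Gadd45a, and counts outside that part check nothing, so these groups are called by their labels and every direction for them rests on the labels. All 10 fibroblast markers stood at 1 CPM or more in every library, with sums of 67000 to 80800 CPM. Single markers among them still differed. In Ing1 KO against the WT 3 were called higher and 3 lower, where 12.1% and 11.4% of all genes were. The log2 fold changes of the 10 ran from -1.42 to 0.45 there. In labelled DKO against the WT none was called higher and 1 lower (15.6% and 10.3% of all genes). Markers of macrophages moved with the labelled DKO. Their summed level over 18 markers was 2235 to 2794 CPM there, against 263.6 to 453 CPM in the WT, 355 to 621.9 CPM in Ing1 KO and 139.8 to 548.2 CPM in the labelled Gadd45a knockout, where replicate 1 was lowest. Of the 17 that could be tested all 17 were called higher in labelled DKO than in WT (median log2 fold change 2.53), no marker was at 0 in any library, and Cd163, too low to test, was at 0.0544 to 0.259 CPM. In such mixed RNA, fewer cells of a type and less RNA per cell cannot be told apart.

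Among themselves the members spanned about an order of magnitude in the WT on a per-length scale (CPM per kilobase of exon). Hmox1 was highest at 48.9 ± 2.6, followed by Nfe2l2 at 25.7 ± 1.8 and Txnrd1 at 23.9 ± 0.80, whose ranges of mean ± SD overlapped. Srxn1 (17.7 ± 0.19), Gstm1 (17.6 ± 1.6) and G6pdx (15.7 ± 0.63) came next, and each neighbouring pair of these 3 overlapped in the same sense. Gclc (6.84 ± 0.58), Gclm (5.72 ± 0.19), Nqo1 (5.06 ± 0.33) and Gsta4 (3.98 ± 0.30) were lowest (SD, n = 3 each). In labelled DKO the span was wider at both ends, with Hmox1 at 81.5 ± 4.2 and Gsta4 at 1.95 ± 0.52 CPM per kilobase (SD, n = 3). G6pdx stood above Gstm1 there, at 19.7 ± 0.86 against 15.2 ± 2.9.

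**Figure D1:**
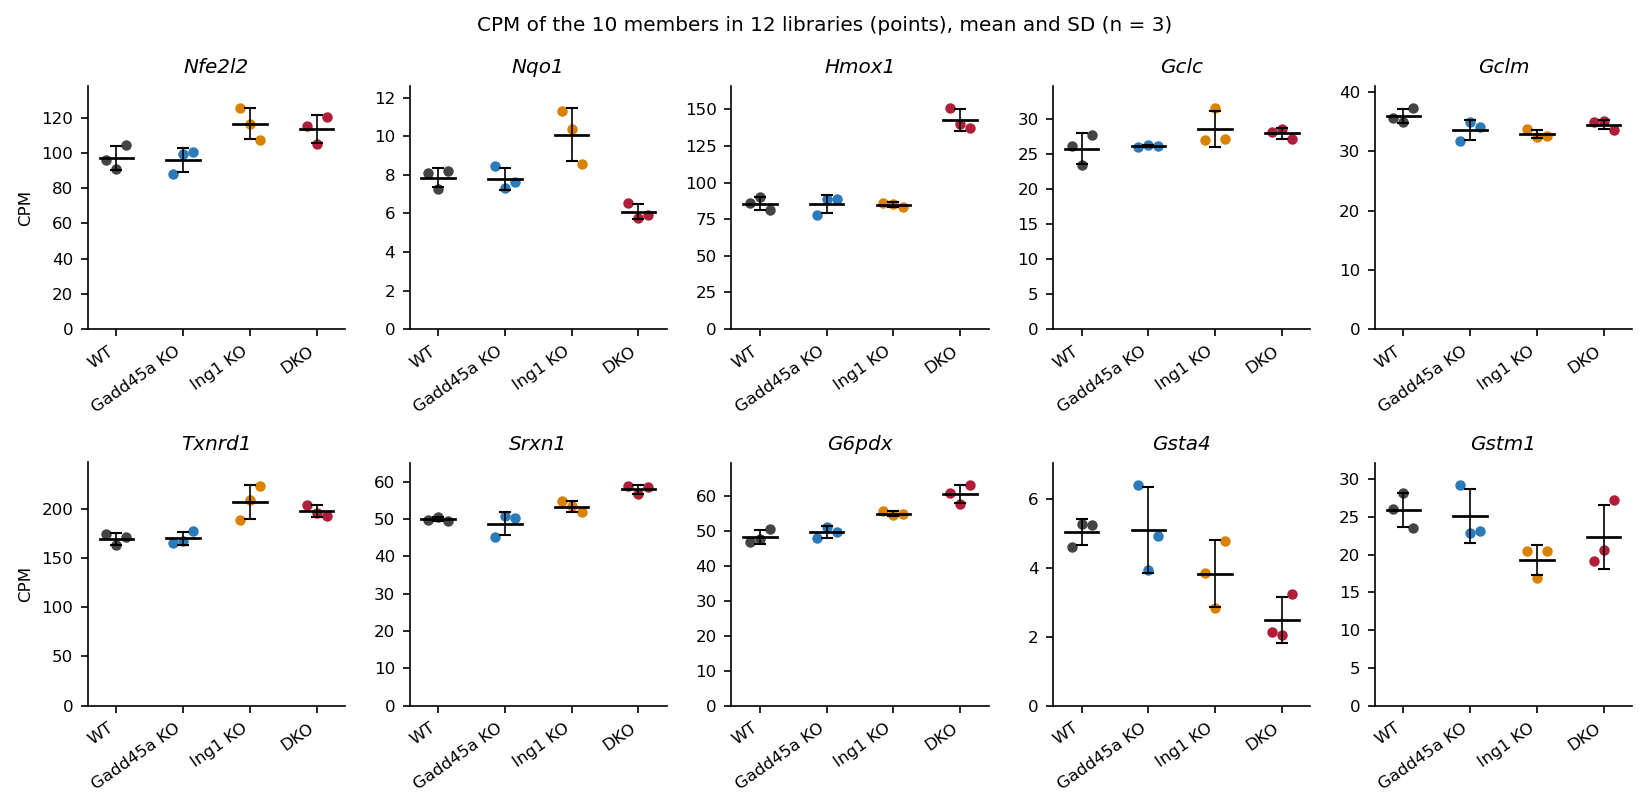
Level of each gene (CPM, linear axes from 0) in the 3 libraries of each group, with points for libraries, a line for the mean and bars for the SD. Hmox1 in labelled DKO lies at 137 to 151 CPM, above the other 9 libraries. The mean of Gsta4 is lowest in labelled DKO, whose libraries overlap those of Ing1 KO for this gene.

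Loss of Ing1, as labelled, went with higher RNA of the NRF2 gene itself and of 3 targets. Against the WT, Nfe2l2, Nqo1, Txnrd1 and G6pdx rose and Gstm1 fell, which is 4 of 10 members called higher and 1 called lower. Of all genes tested, 12.1% were called higher and 11.4% lower, so the lower share of the members was close to the background. The median log2 fold change of the members was 0.12, beside 0.00 over all genes. With Ing1 KO replicate 2 or 1, or WT replicate 2, left out, 2 members were called in all, and with WT replicate 1 left out, 3.

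The libraries labelled Gadd45a knockout held every member near its WT level. None of the 10 was called by edgeR or by DESeq2, and none had an unadjusted p under 0.05. The log2 fold changes ran from -0.10 for Gclm to 0.04 for G6pdx, with adjusted p from 0.582 to 0.988 (edgeR). Over all genes 0.00662% were called by edgeR (1 gene) and 0.207% by DESeq2 (27 genes), and 8.82% had an unadjusted p under 0.05 in edgeR. No gene of the 7 other pathway lists was called either, by edgeR, DESeq2 or in any other of the 18 alternatives, and 0 to 2 genes per list had an unadjusted p under 0.05 in edgeR. The abundant genes Fth1 and Tkt had log2 fold changes of -0.08 ± 0.055 and 0.10 ± 0.061 (adjusted p = 0.69 and 0.681). This does not show the groups to be equal: for Gsta4, counted 65 to 246 times per library, the log2 fold change of 0.01 carries an SE of 0.22.

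In labelled DKO the members moved in both directions. Against the WT, Nfe2l2, Hmox1, Txnrd1, Srxn1 and G6pdx rose and Nqo1 and Gsta4 fell, 5 and 2 of 10, where 15.6% of all genes were called higher and 10.3% lower. The median of the members was 0.17, beside 0.01 over all genes. Against the labelled Gadd45a knockout the count was also 5 higher and 2 lower (background 15.8% and 10.6%). Without replicate 1 of that group, which had the lowest macrophage sum, 4 members in all were called rather than 7. Against Ing1 KO, Hmox1 and G6pdx were called higher and Nqo1 lower, with 14.9% of all genes higher and 9.88% lower, and without the same library of the labelled Gadd45a knockout 5 members were called rather than 3. The 3 comparisons with the WT share its libraries, and the 3 with labelled DKO share those, so their values are set side by side and not counted as separate support.

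**Figure D2:**
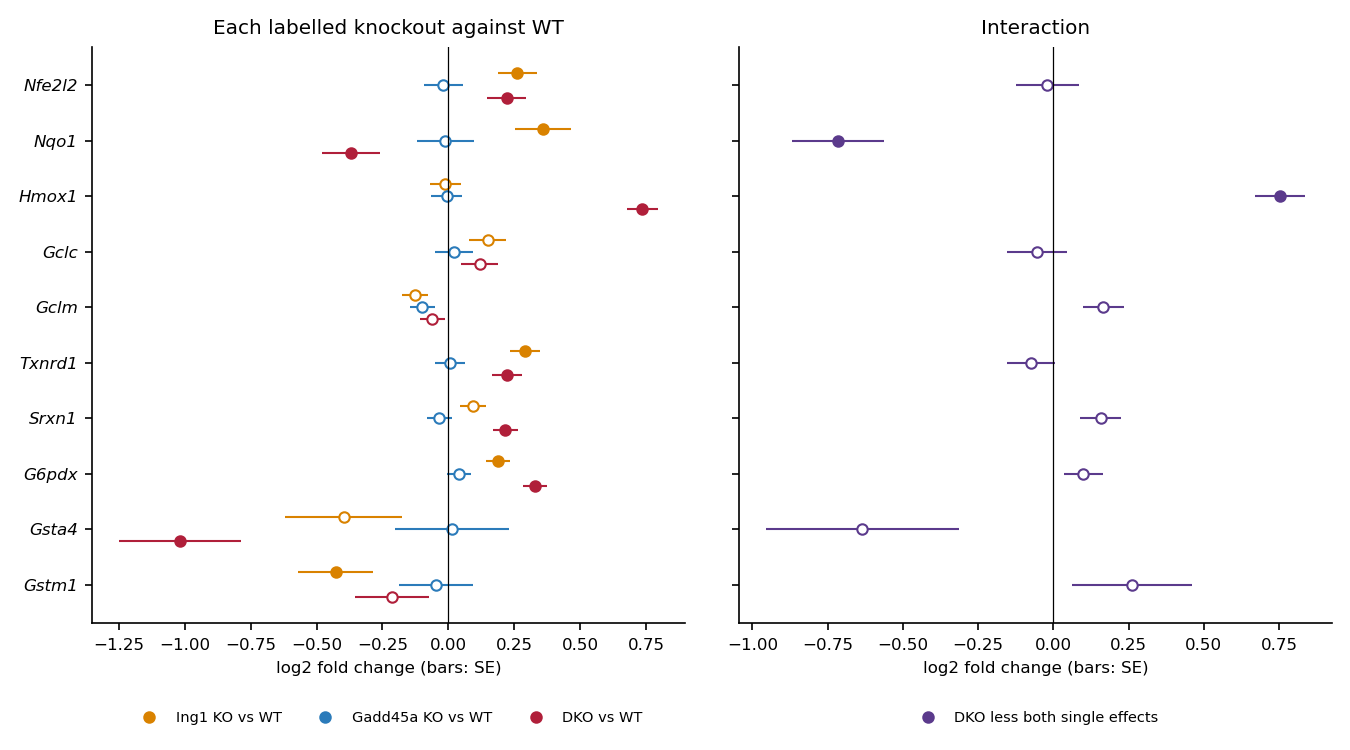
Log2 fold change of each gene with its SE (bars) in each labelled knockout against the WT (left) and in the interaction (right), with filled points for called genes and open points for the others. Nqo1 lies to the right of 0 in Ing1 KO and to the left in labelled DKO, and only Hmox1 and Nqo1 are filled in the interaction.

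Nfe2l2 (ENSMUSG00000015839, chromosome 2) encodes NRF2. It was counted at 96.3, 91.2 and 104.5 CPM in WT replicates 1 to 3 and at 88, 99.6 and 100.5 CPM in the labelled Gadd45a knockout. In Ing1 KO it stood at 126, 117 and 108 CPM, and in labelled DKO at 115, 104.9 and 120.5 CPM. All 3 Ing1 KO libraries lay above the WT libraries, while the lowest labelled DKO library was level with the highest WT library. Nfe2l2 rose 1.20-fold in Ing1 KO (log2 fold change 0.26 ± 0.074 SE, edgeR adjusted p = 0.0224) and 1.17-fold in labelled DKO (0.22 ± 0.074, adjusted p = 0.0424). Both calls were weak: that in Ing1 KO was lost without WT replicate 1 or 2 or Ing1 KO replicate 1 or 2 (adjusted p 0.0596 to 0.0968). That in labelled DKO was lost with RLE scaling (0.0568) and without WT replicate 1 or 2 or labelled DKO replicate 1 or 3 (0.111 to 0.153), among other settings.

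RNA of genes that control NRF2 or act beside it was called higher more often in Ing1 KO than in labelled DKO. Of 11 such genes, 4 were called higher in Ing1 KO than in WT and none lower (median log2 fold change 0.05), and 2 were called without WT replicate 2 or Ing1 KO replicate 2. Sqstm1, whose protein p62 draws KEAP1 into autophagy, rose from 292 ± 16 to 360 ± 32 CPM. Mafg, a small MAF partner, rose from 67.4 ± 3.1 to 79.3 ± 3.1 CPM, and Nfe2l1, an NRF2 relative, from 437 ± 24 to 487 ± 18 CPM (SD, n = 3 each, edgeR adjusted p = 0.00286, 0.00413 and 0.0321). The call of Nfe2l1 was lost in 6 of 17 alternatives, such as a fit of these 2 groups alone, while those of Sqstm1 and Mafg held in all 17. Over all genes 12.1% were called higher in this comparison. In labelled DKO these 3 stood at 289 ± 2.9, 69 ± 1.6 and 410 ± 14 CPM and were not called against the WT. Of the 11, only Rbx1, a subunit of the KEAP1 ligase, was called against the WT there, at -0.17 ± 0.045 on the log2 scale (edgeR adjusted p = 0.012), and the median was -0.02. Over all genes 15.6% were called higher and 10.3% lower in labelled DKO, so 1 of 11 lower is near the background. In 5 of 17 alternatives 1 or 2 of the 11 were called higher there as well (2 without labelled DKO replicate 3, and 1 without Ing1 KO replicate 1 or 3, with the replicate block or in a fit of both groups alone). Sqstm1 and Mafg exons overlap those of another gene.

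Nqo1 (ENSMUSG00000003849, chromosome 8) encodes a quinone reductase and is often read as a gauge of NRF2 activity. It was one of the scarcer members. WT libraries held 8.09, 7.27 and 8.21 CPM, and those of the labelled Gadd45a knockout 8.44, 7.32 and 7.63 CPM. In Ing1 KO it stood at 11.3, 10.4 and 8.59 CPM, and in labelled DKO at 6.53, 5.78 and 5.94 CPM. Every Ing1 KO library lay above every WT library and every labelled DKO library lay below, so these 3 groups did not overlap. Nqo1 rose 1.28-fold in Ing1 KO (log2 fold change 0.36 ± 0.11, edgeR adjusted p = 0.0266) and fell 1.29-fold in labelled DKO (-0.37 ± 0.11, adjusted p = 0.0257). Between labelled DKO and Ing1 KO the change was -0.73 ± 0.11 (adjusted p = 0.000665). The rise in Ing1 KO was no longer called without WT replicate 2 or Ing1 KO replicate 1 or 2 (adjusted p 0.0933 to 0.109) or in a fit of these 2 groups alone (0.0681). The fall in labelled DKO was no longer called without WT replicate 1 or 3 or labelled DKO replicate 2 or 3 (0.0661 to 0.0815). The change between labelled DKO and Ing1 KO was called under each of the 17 alternatives run.

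Hmox1 (ENSMUSG00000005413, chromosome 8) encodes the inducible heme oxygenase, which opens the heme ring and releases iron, carbon monoxide and biliverdin. WT libraries had 85.8, 90 and 80.9 CPM, those of the labelled Gadd45a knockout 77.9, 89 and 88.8 CPM and those of Ing1 KO 86.2, 85.3 and 83.2 CPM. In labelled DKO it was 151, 140 and 137 CPM. Those 3 libraries lay far above the other 9, which overlapped one another. Hmox1 rose 1.67-fold against the WT (log2 fold change 0.74 ± 0.058, edgeR adjusted p = 2.09e-05), 1.67-fold against the labelled Gadd45a knockout (0.74 ± 0.058, adjusted p = 2.25e-05) and 1.68-fold against Ing1 KO (0.75 ± 0.058, adjusted p = 2.33e-05). With single libraries left out, the change against the WT ran from 0.69 to 0.77. In Ing1 KO against the WT it was -0.01 ± 0.058 (adjusted p = 0.911).

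Most genes that handle heme and iron beside heme oxygenase also rose in labelled DKO. Of 9 such genes 7 were called higher than in WT and none lower, with a median log2 fold change of 0.50 beside 0.01 over all genes, of which 15.6% were called higher. The count was 7 under each of the 17 alternatives run. Fth1, the ferritin heavy chain that stores iron, stood at 703, 719 and 677 CPM in labelled DKO and at 399, 418 and 379 CPM in the WT (log2 fold change 0.81 ± 0.055, edgeR adjusted p = 7.54e-06). Ftl1, the ferritin light chain, rose from 119 ± 11 to 174 ± 2.3 CPM, and Blvrb, a biliverdin reductase, from 10.7 ± 1.6 to 17.6 ± 1.4 CPM (SD, n = 3 each). Blvra, the other biliverdin reductase, stood at 15.9 ± 1.4 and 23.9 ± 1.1 CPM and was called higher in labelled DKO than in the labelled Gadd45a knockout and Ing1 KO (adjusted p = 0.000247 and 0.000446). Against Ing1 KO 6 of the 9 were called higher and none lower, where 14.9% of all genes were called higher and 9.88% lower. In Ing1 KO against the WT 2 were called higher and 1 lower (median -0.03). Of all genes 12.1% were called higher and 11.4% lower there, so 1 of 9 lower is near the background. None was called higher in Ing1 KO without Ing1 KO replicate 2 or 3 or in a fit of these groups alone, and 1 without WT replicate 2 or 3. Ftl1 and Hmox2 exons overlap another gene's, and ferritin genes have processed copies whose shared reads were not counted.

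Macrophages, which recycle heme iron, are known to express Hmox1 and ferritin strongly, and the macrophage sum of 2235 to 2794 CPM set labelled DKO apart in the same way as Hmox1. The library with the lowest sum (139.8 CPM, replicate 1 of the labelled Gadd45a knockout) also had the lowest Hmox1 (77.9 CPM) and Fth1 (346 CPM, against 388 and 393 CPM in the other two of its group). In the other 8 libraries outside labelled DKO the sum went from 263.6 to 621.9 CPM, while Hmox1 stayed within 80.9 to 90 CPM. The part of the macrophage RNA in the Hmox1, heme and iron results was not tested, nor was its part in the other differences of labelled DKO given here. The sums of Ing1 KO (355 to 621.9 CPM) and WT (263.6 to 453 CPM) overlapped.

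**Figure D3:**
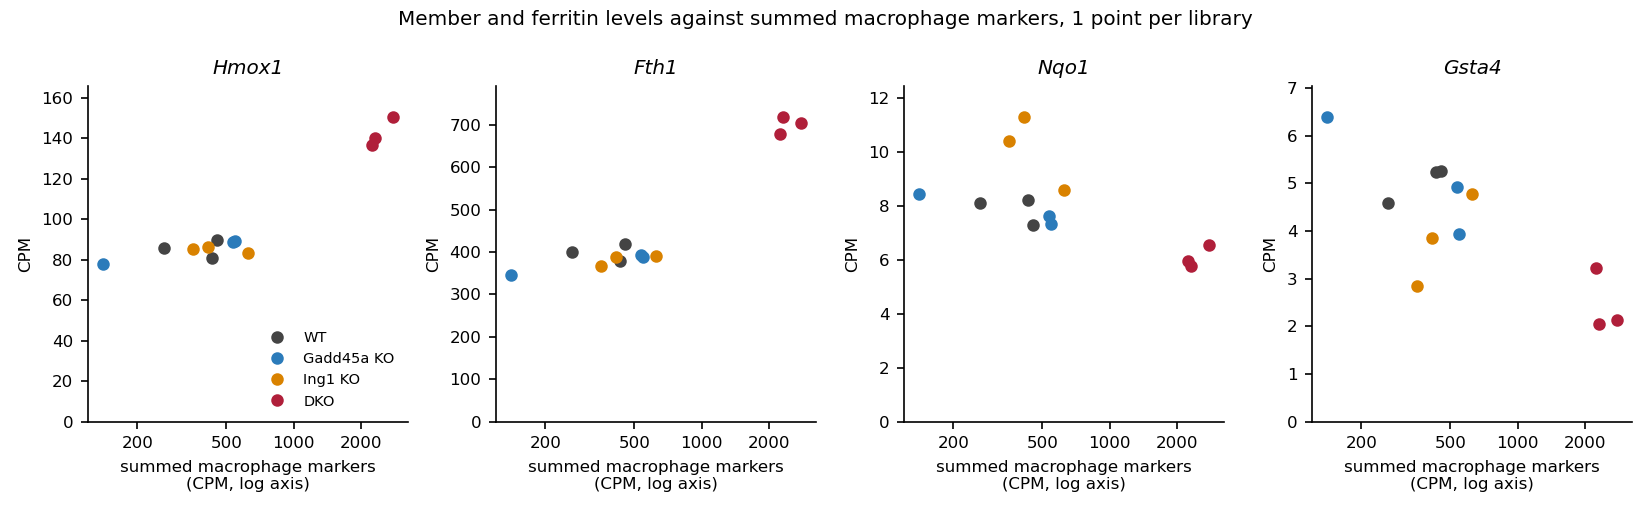
Level of Hmox1, Fth1, Nqo1 and Gsta4 (CPM, linear axis from 0) against the sum of 18 macrophage markers (CPM, log axis), 1 point per library, coloured by labelled group. The 3 labelled DKO libraries lie at 2235 to 2794 CPM of markers, apart from the other 9, with the highest Hmox1 and Fth1 and the lowest Nqo1.

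Glutathione is made in 2 steps, and glutamate-cysteine ligase, whose catalytic and modifier subunits are encoded by Gclc and Gclm, carries out the slower one. Gclc (ENSMUSG00000032350, chromosome 9) ranged from 23.4 to 27.7 CPM in the WT, 26 to 26.3 in the labelled Gadd45a knockout, 27 to 31.5 in Ing1 KO and 27.1 to 28.6 in labelled DKO. Gclm (ENSMUSG00000028124, chromosome 3) ranged from 35 to 37.3, 31.7 to 34.9, 32.5 to 33.8 and 33.6 to 35 CPM in the same order. Each mutant group overlapped the WT for Gclc, while the WT libraries were at the top of the range for Gclm, and neither gene was called in any comparison. The log2 fold changes in Ing1 KO were 0.15 ± 0.070 for Gclc and -0.13 ± 0.048 for Gclm (edgeR adjusted p = 0.143 and 0.0729), so the subunits did not lean the same way. Exons of Gclm overlap Gm17494 on the opposite strand and Gm6061, and reads there cannot be assigned with certainty.

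Other genes of glutathione synthesis and recycling were split. Of 12, 3 were called higher and 3 lower in Ing1 KO against the WT (median -0.07), and 2 higher and 4 lower in labelled DKO (median -0.09). Over all genes the shares were 12.1% higher and 11.4% lower in Ing1 KO and 15.6% and 10.3% in labelled DKO, so 2 of 12 higher there is near the background. Gss, the enzyme of the last synthesis step, rose from 17.9 ± 1.3 to 22.8 ± 2.8 CPM in Ing1 KO and stood at 16.8 ± 0.65 CPM in labelled DKO. Gpx4, which reduces lipid peroxides, rose from 152 ± 6.9 to 178 ± 11 CPM in Ing1 KO (SD, n = 3 each, edgeR adjusted p = 0.00984 for Gss and 0.00418 for Gpx4). Glrx, a glutaredoxin, rose from 30.6 ± 2.2 to 44.1 ± 0.95 CPM in labelled DKO (adjusted p = 0.00179). Gpx7, an endoplasmic reticulum peroxidase, fell slightly in both, from 70.2 ± 2.5 to 60.9 ± 1.1 and 60 ± 2.2 CPM (adjusted p = 0.00359 and 0.0016). Only 1 was called higher in Ing1 KO without WT replicate 2 or Ing1 KO replicate 2. Gss exons overlap Acss2, Gssos2 and Gssos1 on the opposite strand.

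Txnrd1 (ENSMUSG00000020250, chromosome 10) encodes cytosolic thioredoxin reductase, which uses NADPH to keep thioredoxin reduced. It stood at 174, 163 and 171 CPM in the WT, 165, 167 and 177 in the labelled Gadd45a knockout, 189, 209 and 223 in Ing1 KO and 204, 196 and 193 in labelled DKO. Every Ing1 KO and labelled DKO library was above every WT and labelled Gadd45a knockout library. Txnrd1 rose 1.22-fold in Ing1 KO (log2 fold change 0.29 ± 0.057, edgeR adjusted p = 0.00328), a call that held in each of 17 alternatives. It rose 1.17-fold in labelled DKO (0.22 ± 0.057, adjusted p = 0.0112), which was just lost without WT replicate 2 (0.0508) or labelled DKO replicate 1 (0.0562).

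Srxn1 (ENSMUSG00000032802, chromosome 2) encodes sulfiredoxin, which restores peroxiredoxins that peroxide has over-oxidised. Its WT libraries held 49.8, 50.5 and 49.5 CPM and those of the labelled Gadd45a knockout 45.2, 50.8 and 50.3 CPM. Ing1 KO had 54.7, 53.4 and 51.7 CPM, and labelled DKO 58.9, 56.6 and 58.5 CPM, above the other 9 libraries. The change in labelled DKO was called (1.16-fold, log2 fold change 0.22 ± 0.048, edgeR adjusted p = 0.00511). That in Ing1 KO was not (0.09 ± 0.048, adjusted p = 0.18), and the direct difference between labelled DKO and Ing1 KO missed the threshold (0.12 ± 0.048, adjusted p = 0.078).

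Of 12 further thioredoxin and peroxiredoxin genes, 4 were called higher and 1 lower in Ing1 KO, with a median of 0.08. Without Ing1 KO replicate 2 only 1 was called higher, and without WT replicate 2 or 3 only 2. Thioredoxin itself (Txn1) rose from 174 ± 4.3 to 203 ± 7.8 CPM, while its inhibitor Txnip fell from 283 ± 28 to 206 ± 16 CPM (SD, n = 3 each, edgeR adjusted p = 0.00327 and 0.0016). In labelled DKO 6 were called higher and 1 lower (median 0.11), where 15.6% and 10.3% of all genes were, against 12.1% and 11.4% in Ing1 KO. The 1 called lower was lost in 7 of 17 alternatives (the replicate block, and without WT replicate 1, labelled Gadd45a knockout replicate 3, Ing1 KO replicate 2 or any 1 labelled DKO library). Prdx1 rose from 295 ± 21 to 365 ± 19 CPM, Prdx5 from 116 ± 3.8 to 143 ± 4.1 CPM and Txn1 to 198 ± 4.5 CPM (adjusted p = 0.00198, 0.000841 and 0.00697). The first 2 encode peroxiredoxins, which reduce hydrogen peroxide. Txnip was at 297 ± 22 CPM in labelled DKO, and its change against Ing1 KO was 0.53 ± 0.078 (adjusted p = 0.000706). Txnip and Prdx5 exons overlap genes on the opposite strand.

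G6pdx (ENSMUSG00000031400, chromosome X) encodes glucose-6-phosphate dehydrogenase, the entry enzyme of the pentose phosphate pathway and a main source of NADPH. It stood at 46.8, 47.7 and 50.5 CPM in the WT, 48, 51.3 and 49.9 in the labelled Gadd45a knockout, 55.8, 54.6 and 54.8 in Ing1 KO and 61.1, 57.9 and 63.1 in labelled DKO. The groups formed steps without overlap, from WT and labelled Gadd45a knockout together to Ing1 KO and then labelled DKO. G6pdx rose 1.14-fold in Ing1 KO (log2 fold change 0.19 ± 0.046, edgeR adjusted p = 0.0105) and 1.26-fold in labelled DKO (0.33 ± 0.046, adjusted p = 0.000331). The further step between these groups was small (0.14 ± 0.046, adjusted p = 0.0377) and was not called in 11 of 17 alternatives, DESeq2 (0.0777) and labelled DKO replicate 3 left out (0.135) among them. G6pdx exons overlap Ikbkg on the opposite strand, and reads shared with its copy G6pd2, which had 0 to 3 counts per library, were not counted.

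Other genes of NADPH supply, which include steps of the pentose phosphate pathway that form no NADPH themselves, were also mostly called higher. Of 8 tested, 5 were called higher and none lower in Ing1 KO (median 0.20), and 5 higher and none lower in labelled DKO (median 0.28), against 12.1% and 15.6% of all genes called higher. Pgd, the next NADPH-forming step of the same pathway, had 125, 119 and 122 CPM in the WT, 153, 153 and 147 in Ing1 KO and 176, 158 and 166 in labelled DKO. Its log2 fold change was 0.31 ± 0.049 in Ing1 KO (edgeR adjusted p = 0.00097) and 0.45 ± 0.049 in labelled DKO (adjusted p = 7.65e-05). Tkt, the transketolase of its later steps, rose from 150 ± 11 to 192 ± 11 and 189 ± 12 CPM, and Me1, cytosolic malic enzyme, from 134 ± 7.6 to 155 ± 5.7 and 162 ± 1.5 CPM (SD, n = 3 each). Without WT replicate 3 or Ing1 KO replicate 2 the 5 in Ing1 KO were 3, while those in labelled DKO were 5 in every alternative. Me1 exons overlap A330041J22Rik on the opposite strand, and Tkt exons overlap Mir3076.

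Gsta4 and Gstm1 encode glutathione transferases, and GSTA4 acts on 4-hydroxynonenal, a product of lipid peroxidation. Gsta4 (ENSMUSG00000032348, chromosome 9) was the scarcest member, at 4.6, 5.27 and 5.23 CPM in the WT, 6.41, 3.94 and 4.92 in the labelled Gadd45a knockout, 3.85, 2.84 and 4.77 in Ing1 KO and 2.13, 2.05 and 3.24 in labelled DKO. The labelled DKO libraries lay below all WT and labelled Gadd45a knockout libraries but overlapped Ing1 KO, and the SD reached 1.2 CPM on a mean of 5.09 CPM in the labelled Gadd45a knockout. Gsta4 fell 2.02-fold in labelled DKO against the WT (log2 fold change -1.02 ± 0.23, edgeR adjusted p = 0.00638). The change of -0.40 ± 0.22 in Ing1 KO was not called (adjusted p = 0.219). Nor was that of -0.62 ± 0.23 between labelled DKO and Ing1 KO (adjusted p = 0.0713), which DESeq2 (0.0374) and a fit without Ing1 KO replicate 2 (0.0366) or labelled DKO replicate 3 (0.0245) did call.

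Gstm1 (ENSMUSG00000058135, chromosome 3) stood at 26.1, 28.1 and 23.6 CPM in the WT, 29.3, 22.9 and 23.2 in the labelled Gadd45a knockout, 20.4, 16.9 and 20.5 in Ing1 KO and 19.2, 20.7 and 27.2 in labelled DKO. Ing1 KO lay below the WT without overlap, and labelled DKO replicate 3 stood within the WT range. The fall in Ing1 KO (1.35-fold, log2 fold change -0.43 ± 0.14) was called by a hair (edgeR adjusted p = 0.0496) and lost in 12 of 17 alternatives, such as RLE scaling (0.0512) or no filter on low counts (0.146). In labelled DKO the change was -0.21 ± 0.14 (adjusted p = 0.305), and without replicate 3 it was -0.39 ± 0.12 (adjusted p = 0.0424). Gstm1 has close paralogs, so its counts leave out reads that map to more than 1 of them.

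The wider set of conjugating, reducing and exporting genes held more calls lower than higher. Of 36 such genes 30 could be tested, and 8 were called lower and 2 higher in Ing1 KO (median -0.09), 11 lower and 5 higher in labelled DKO (median -0.12). Of all genes 11.4% were called lower and 12.1% higher in Ing1 KO, and 10.3% and 15.6% in labelled DKO, so 5 of 30 higher there is near the background. The 2 higher in Ing1 KO were 1 without WT replicate 2 or Ing1 KO replicate 2. In Ing1 KO the 3 calls of smallest adjusted p were transferases. Mgst1, a microsomal transferase, fell from 52.5 ± 2 to 27 ± 3 CPM in Ing1 KO and 32.5 ± 2.3 CPM in labelled DKO, and Gstm2 from 65.9 ± 3.8 to 41.1 ± 3.3 and 33.9 ± 4.3 CPM. Gstt1 fell from 5.67 ± 0.53 to 2.41 ± 0.21 CPM in Ing1 KO (SD, n = 3 each, edgeR adjusted p = 0.000116 for Mgst1, 0.000222 for Gstm2 and 0.000116 for Gstt1). Abcc3, an exporter of conjugates, went the other way and rose from 6.88 ± 0.80 to 19.7 ± 1.6 CPM in labelled DKO (log2 fold change 1.52 ± 0.20, adjusted p = 0.000407), while it stood at 6.44 ± 1.1 CPM in Ing1 KO. Gstm2 shares the paralog limit of Gstm1.

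Of 5 genes that remove superoxide and peroxide, 1 was called higher and 1 lower in Ing1 KO and in labelled DKO against the WT, which is near the shares over all genes (12.1% and 11.4%, 15.6% and 10.3%). Sod1, the cytosolic superoxide dismutase, rose slightly in Ing1 KO (log2 fold change 0.13 ± 0.041, edgeR adjusted p = 0.0319) and in labelled DKO (0.18 ± 0.041, adjusted p = 0.00626). Sod2, its mitochondrial counterpart, fell in Ing1 KO (-0.21 ± 0.068, adjusted p = 0.0408), and Ccs, which loads copper onto SOD1, fell in labelled DKO (-0.19 ± 0.047, adjusted p = 0.00966). Each call in Ing1 KO was lost in 8 of 17 alternatives, and in 6 of 17, DESeq2 and the fits without WT replicate 2, labelled Gadd45a knockout replicate 2 or Ing1 KO replicate 1 or 3 among them, 2 of the 5 were called lower in labelled DKO.

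**Figure D4:**
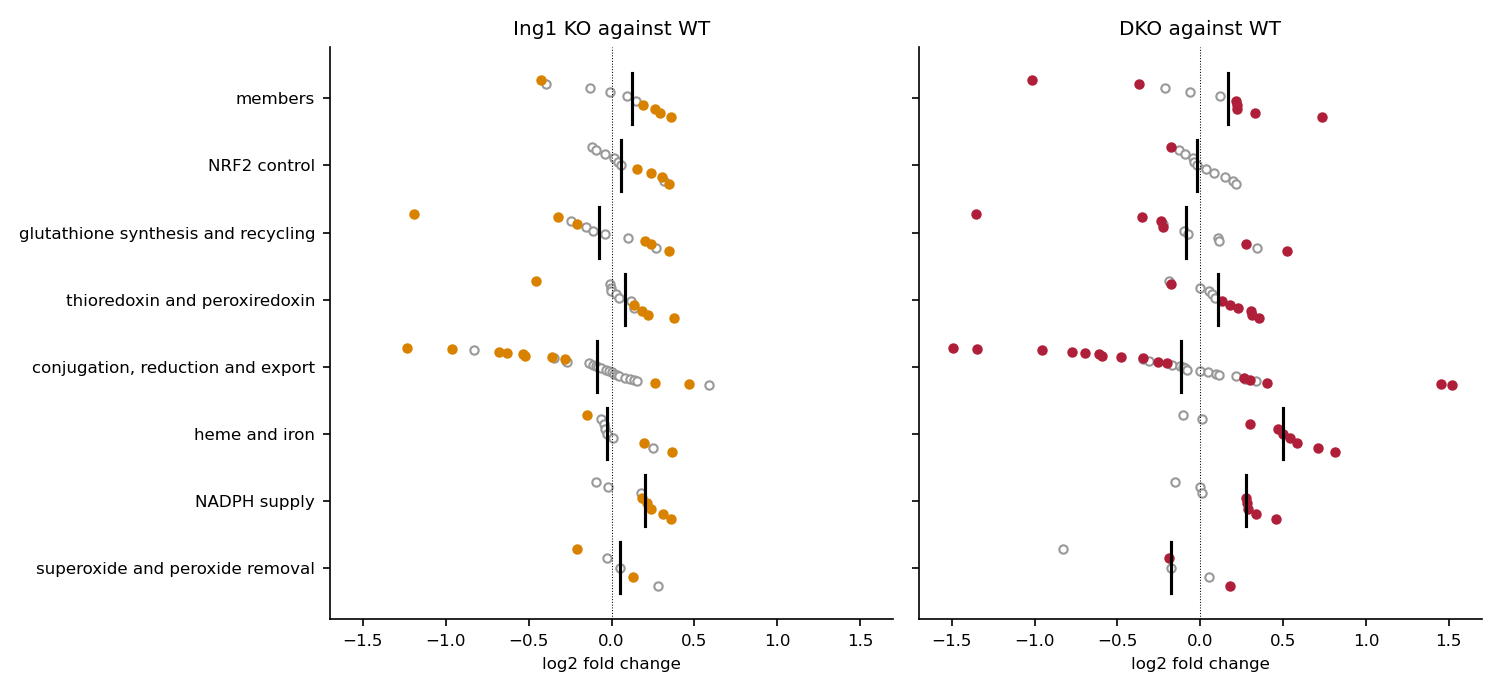
Log2 fold changes against the WT of the 10 members and of 7 other groups of pathway genes, 1 point per tested gene, in Ing1 KO (left) and labelled DKO (right), with called genes filled and the median of each group as a bar. In labelled DKO the bar of the heme and iron genes lies at 0.50 and that of NADPH supply at 0.28, while that of the conjugating genes lies at -0.12.

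Whether labelled DKO departed from the sum of both single changes was asked with an interaction term, the log2 fold change of labelled DKO against the WT less those of both single knockouts. It was called for 2 of the 10 members, higher for Hmox1 (0.75 ± 0.082, edgeR adjusted p = 0.000516) and lower for Nqo1 (-0.72 ± 0.15, adjusted p = 0.00922). Of all genes 10.4% were called higher and 7.4% lower, so the count of members is near the background in each direction. The calls of Hmox1 and Nqo1 held in all 16 alternatives run. For Nfe2l2 (-0.02 ± 0.10), Txnrd1 (-0.07 ± 0.081) and G6pdx (0.10 ± 0.065) it was not called. Among the other lists, Sqstm1, Mafg and Nfe2l1 were the 3 of 11 control genes called, all lower (-0.40, -0.34 and -0.33, adjusted p = 0.00798, 0.00699 and 0.00772). Of the heme and iron genes 4 of 9 were called, all higher, with Fth1 at 0.96 ± 0.078 (adjusted p = 0.000198). Of the macrophage markers 9 of 17 were called, all higher, and their part in the interaction of Hmox1 was not tested.

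The genes whose log2 CPM followed a member most closely over the 12 libraries were ranked by Pearson's r among 9152 genes whose mean reached 10 CPM. The 4 groups and any shared change in cell makeup enter this measure, so it describes likeness only. Hmox1 was most like Fth1 (r = 0.99), Cerk (0.99) and Mertk (0.98), and Mertk, a receptor for the uptake of dying cells that macrophages express, had 26.3 ± 1.8 CPM in labelled DKO against a WT level of 11.2 ± 1.9 CPM (SD, n = 3). Nqo1 was most like Sdc2, Bdnf (both 0.98) and Ptpn21 (0.96). Sdc2 had 194 ± 15, 187 ± 6.8, 221 ± 16 and 162 ± 4.9 CPM in WT, labelled Gadd45a knockout, Ing1 KO and labelled DKO. Nfe2l2 was most like Ank3 (0.96), Spp1 (0.96) and Rnf6 (0.95), and Spp1, the gene of the secreted protein osteopontin, varied widely within Ing1 KO (887 ± 477 CPM).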

How the data were processed

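Poly(A) RNA was sequenced as 12 unstranded MEF libraries, single reads of 51 cycles, per the labels. The authors deposited raw counts for each gene, in 1 table per library. As the submitters' processing notes list, TopHat2 2.0.9, Bowtie2 2.1.0, mm9 (NCBIM37), HTSeq 0.5.4 and DESeq were used; no strand setting for HTSeq is given in the sources used here, so overlapping genes on opposite strands cannot be told apart. The 5 summary lines per table (23.89% to 24.91% of reads not assigned to a gene) were left out. Chi-square per degree of freedom between replicates was 5.27 to 31.26, so none was a duplicate. Exon lengths and overlaps came from GENCODE M21, another build, and symbols from a separate list of gene names.

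Counts of all 12 libraries were fitted in 1 model of 4 groups with edgeR 4.0.16 (R 4.3.3, TMM, filterByExpr, robust quasi-likelihood, two-sided, Benjamini-Hochberg over 15098 genes). The fit had 8 residual degrees of freedom and a biological coefficient of variation of 8.2%. Fold changes are edgeR's. Its test gives no SE, so each SE is the absolute log2 fold change divided by the square root of the test's F statistic. The script was tested on simulated data. An exact permutation test of 3 against 3 cannot go below 0.1, so none was run. Alternatives were RLE scaling, DESeq2 1.42.0, no filter, a replicate block, the compared groups alone and each library left out. Deviations from the group mean in same-numbered WT and labelled Gadd45a knockout libraries gave r = 0.105 to 0.336, highest for replicate 1. Same-numbered libraries of other pairs of groups gave -0.177 to 0.206. Differently numbered WT and labelled Gadd45a knockout libraries reached 0.112 and 0.132, so the check does not show pairing by number. The main fit held no pairing term. With the replicate block 0 members were called between WT and labelled Gadd45a knockout, in all groups or in these alone. The latter fit called 13 genes in place of 1 and was added after seeing the data.

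The members and lists were chosen with earlier results of these data known. Named besides the members are up to 3 called genes of smallest adjusted p per list and comparison, or up to 2 abundant ones where none was called, and the 3 genes most like Nfe2l2, Nqo1 and Hmox1. Not tested for low counts were Gsta1, Gsta2, Gsta3, Ugt1a6b, Aldh3a1, Abcc2 and G6pd2. Summed endothelial markers ran from 3.724 to 6.875 CPM and epithelial ones from 0.9971 to 4.488 CPM. Promoter windows are RefSeq's.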

Additional observations from a re-analysis of the deposited data

Results flagged for a closer look

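For Nqo1 the change in labelled DKO departed from the sum of both single changes by -0.72 ± 0.15 on the log2 scale (edgeR interaction test, adjusted p = 0.00922). Its group means were 7.86 ± 0.51 CPM in the WT, 7.79 ± 0.58 in the labelled Gadd45a knockout, 10.1 ± 1.4 in Ing1 KO and 6.08 ± 0.39 in labelled DKO (SD, n = 3 each). For Hmox1 the departure was 0.75 ± 0.082 (adjusted p = 0.000516), with 85.6 ± 4.5, 85.2 ± 6.3, 84.9 ± 1.5 and 143 ± 7.3 CPM in the same order. Both were marked because the change with 1 labelled loss differed with the other labelled loss by a test of that difference. Of all genes 10.4% were called higher and 7.4% lower in it, so 1 of 10 members in each direction is near the background. Of the macrophage markers 9 of 17 were called higher in the same test, and the part of macrophage RNA in these 2 results was not tested.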

How the results depend on the processing

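Of 1020 member values recomputed, 956 kept their side of the threshold, 57 lost a call and 7 gained one. No called value reversed, while some values near 0 that were not called changed sign. Of 1815 values of other named genes, 1744 kept their side and 71 lost a call. With single libraries left out, members called ranged from 2 to 5 in Ing1 KO against WT (5 with all), 5 to 7 in labelled DKO against WT (7), 4 to 7 against the labelled Gadd45a knockout (7) and 2 to 5 against Ing1 KO (3). They stayed at 2 in the interaction and 0 in the labelled Gadd45a knockout. With the replicate block they were 4, 6, 7, 4, 2 and 0 in this order, and the call of Nfe2l2 in labelled DKO (adjusted p = 0.0608) and of Gstm1 in Ing1 KO (0.0724) was lost, while Gsta4 was called between labelled DKO and Ing1 KO (0.0487). Over all genes, calls ranged from 1858 to 3553 in Ing1 KO against WT (3543 with all), lowest without Ing1 KO replicate 2 and at 2113 without WT replicate 2. They ranged from 2754 to 4106 in labelled DKO against WT (3909), 2679 to 4186 against the labelled Gadd45a knockout (3988), 2249 to 3862 against Ing1 KO (3740, lowest without Ing1 KO replicate 2) and 1300 to 3285 in the interaction (2687, lowest without WT replicate 2, 1386 without Ing1 KO replicate 2, 1599 without WT replicate 3 and 1607 without labelled DKO replicate 2). In the labelled Gadd45a knockout against WT 1 gene was called, 1 to 13 with a library left out (13 without WT replicate 1), 27 by DESeq2, 0 in these groups alone and 13 in these alone with the replicate block. Leaving out a library leaves fewer degrees of freedom. Among the members Gsta4 had the fewest counts, 65 to 246 per library, and Nqo1 the next fewest, 183 to 437. How much of their spread came from depth was not tested.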
